A study of Mus with 4 samples.

Results

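The complement system was followed here through 8 of its genes, C1qa, C1qb, C1qc, C4b, C3, Serping1, Cd55 and Cd59a, in dorsal root ganglion (DRG) cells of naïve mice and of mice with a nerve injury. The 8 genes were taken by symbol from the 31240 nuclear genes of the count matrices. Each symbol was present once, so all 8 members were found. None of them had been used to cluster or to name the cells.

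Complement is a cascade of plasma proteins that marks targets for removal or perforates them. In the classical pathway C1q, built from A, B and C chains that C1qa, C1qb and C1qc encode, binds a target and activates the proteases C1r and C1s. These cleave C4, in the mouse encoded mainly by C4b, and C2, and the resulting convertase cleaves C3, on which all routes of activation converge. Serping1 encodes C1 inhibitor, a secreted blocker of C1r and C1s. Cd55 encodes decay-accelerating factor, which takes convertases apart on the cell surface, and Cd59a encodes a surface protein that stops assembly of the membrane attack complex. In nervous tissue macrophages and microglia are the known makers of C1q, and C1q and C3 are known for tagging synapses and debris for uptake.

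Single-cell RNA sequencing with 10x Genomics 3′ version 3.1 droplets was done on cells of the left lumbar 4 and 5 DRGs of wildtype male C57BL/6J mice aged 6 to 8 weeks. The 2 CON libraries came from naïve mice and the 2 CCI libraries from mice 3 d after chronic constriction injury, a model of neuropathic pain made by ligating the sciatic nerve loosely. The labels name collagenase II digestion and frozen cells, whereas the methods of the study name Liberase and papain. How many mice went into a library is not stated, and a p-value therefore reflects only how far these libraries spread, which may be technical.

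Unique molecular identifiers (UMIs) count each captured molecule once. The libraries held 3376 to 11628 barcodes and 52074235 to 135009606 UMIs, and CON replicate 2 held the fewest and deepest cells, with 2613 kept cells at a median of 7939 UMIs against 2398 to 4312 in the others. The labels call the cell type neuron, but clusters with neuron markers made up 11.3% and 14.6% of the kept cells of CON and 16.05% and 11.15% of those of CCI. Satellite glia, the glia that wrap neuron cell bodies, made up 20.1% to 36.85%. Shallow barcodes with neuron markers, 9.64% to 26.4% of kept cells, were kept apart from the neurons. Cell classes carry the suffix -like because they were named from marker genes. From 8 to 29 kept barcodes were shared between pairs of libraries, and no pair shared more than 5 of the same class.

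Levels are CPM, the usual scaling of counts to a common total, of the UMIs summed over the cells of a class in a library. Values are given with replicate 1 before replicate 2. Since the 3′ method tags each molecule once, levels were not scaled by gene length. Class levels are a description, because the classes come from clusters of the same cells. CCI was tested against CON within a class by the quasi-likelihood test of edgeR with Benjamini-Hochberg adjustment over all genes tested. A gene was called at an adjusted p under 0.05. Where both CCI libraries lie on one side of both CON libraries, that order is a description and not a test. So few libraries can separate by chance, and the share of all genes that did so is not given here.

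The members divided the DRG between them. The 3 C1q genes were in macrophage-like cells, and C4b was, of the tested classes, highest in non-myelinating Schwann-like and satellite glia-like cells. C3 was in neutrophil-like cells of both groups and, in CCI, in fibroblast-like cells. Serping1 was highest in fibroblast-like cells, followed by pericyte-like and smooth muscle-like cells and NP1-like neurons at levels near each other. Cd55 was highest in NP1-like and NP2-like neurons, and Cd59a was spread over Schwann-like, glial, endothelial and neuronal cells. Between CON and CCI 1 member in 1 class passed the test, Cd55 in pooled neurons, where 747 of 15555 genes were called (4.8%). The call was lost when CCI replicate 2 was left out, and Cd55 was called in no neuron subtype tested.

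**Figure D1:**
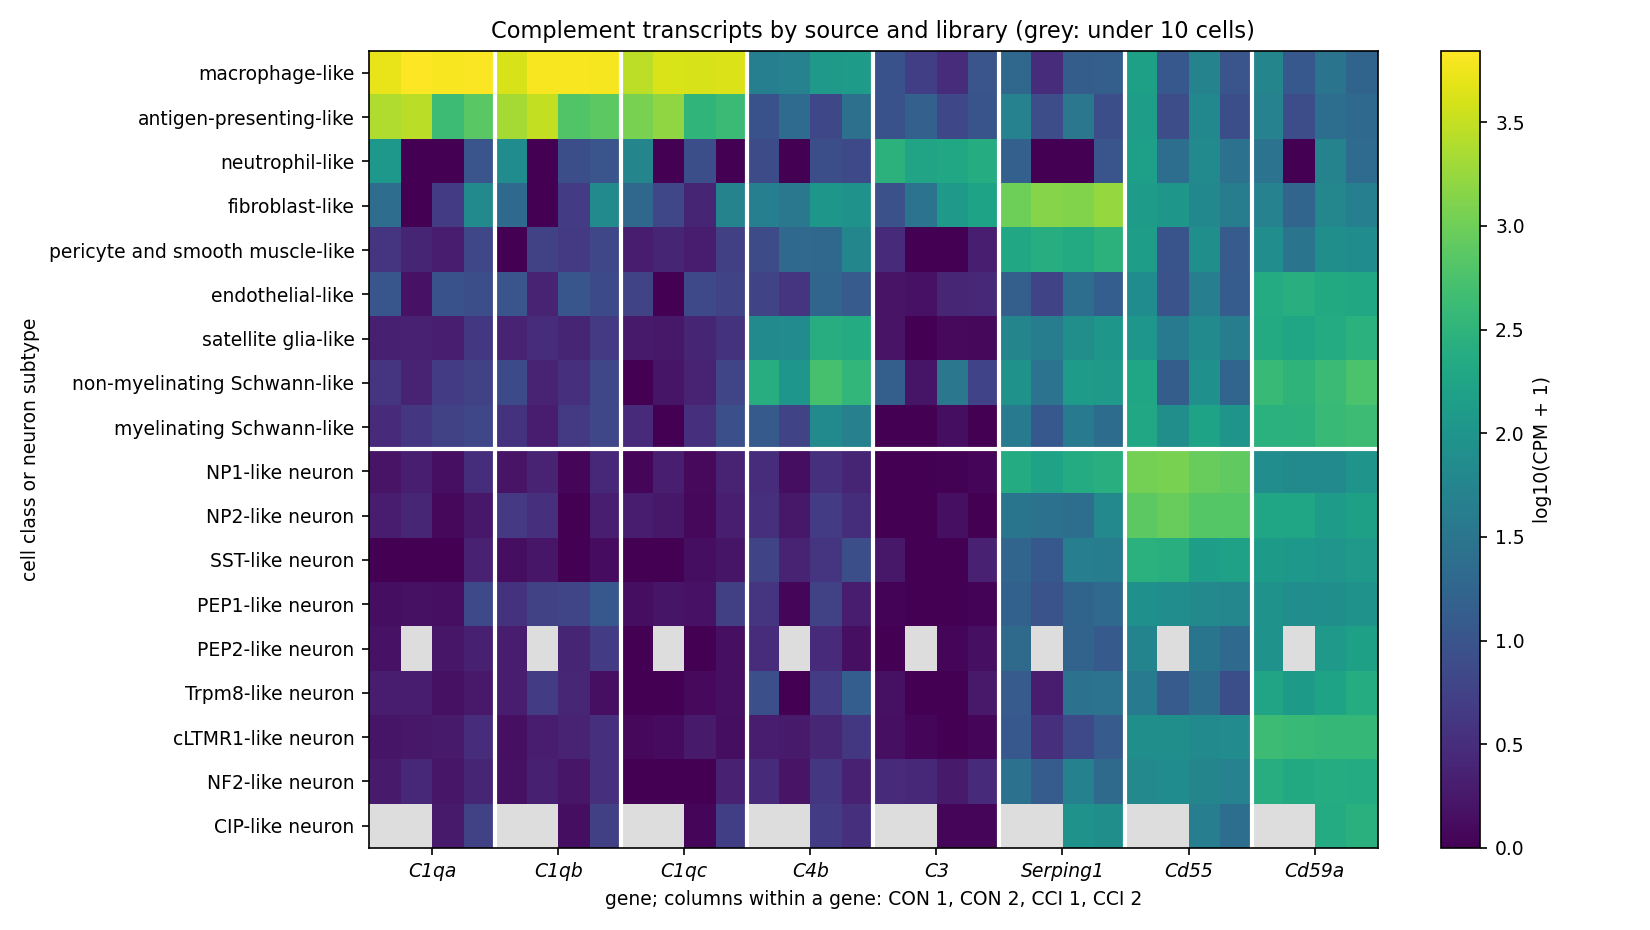
Level of each member (columns) in each cell class and neuron subtype (rows) and library, as CPM of summed UMIs on a log color scale. The C1q genes stand out in the macrophage rows, at 2869 to 6993 CPM, and Cd55 in the NP1-like and NP2-like rows, at 673 to 1162 CPM.

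C1qa lies on chromosome 4 of GRCm38 at 136895916 to 136898844, with C1qc at 136889801 to 136892936 and C1qb at 136880126 to 136886200 next to it. In macrophage-like cells C1qa stood at 5130 and 6993 CPM in CON and at 6449 and 6531 CPM in CCI. C1qb stood at 4146 and 6398 CPM in CON and 6351 and 6176 CPM in CCI. C1qc stood at 2869 and 4290 CPM in CON and 4023 and 4356 CPM in CCI. CON replicate 1 was the lowest library for each of the 3 genes and the groups overlapped. The log2 fold change, CCI over CON, was -0.05 (SE 0.36, n = 2 libraries per group) for C1qa, 0.09 (SE 0.39) for C1qb and 0.07 (SE 0.40) for C1qc, with edgeR adjusted p of 0.993, 0.991 and 0.993. In macrophage-like cells 6 members were tested and 0 were called, where edgeR called 0 of 6566 genes (0%), 296 genes had an unadjusted p under 0.05 and DESeq2 called 11. The macrophage marker list summed to 4801 and 7299 CPM in CON and 6039 and 7283 CPM in CCI in these cells. Their antigen-presentation list summed to 16600 and 24740 CPM in CON and 7995 and 12070 CPM in CCI, and their proliferation list to 11.75 and 12.6 CPM in CON and 364 and 296 CPM in CCI. The part of these lists in the C1q values was not tested.

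The C1q chains were kept in a nearly fixed ratio. Of the C1q UMIs of macrophage-like cells C1qa gave 42.2% and 39.55% in CON and 38.3% and 38.3% in CCI, C1qb 34.1% and 36.2% in CON and 37.75% and 36.2% in CCI, and C1qc the remaining 23.6% to 25.5%. All 3 genes were detected in 217 of 224 and 69 of 69 macrophage-like cells of CON, and in 100 of 105 and 432 of 437 of CCI. None of the 3 was detected in 1, 0, 3 and 2 of these cells. C1q was thus read in nearly every macrophage-like cell of either group.

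Macrophage-like cells gave 77.1% and 83.1% of the C1qa UMIs of CON and 70.5% and 75.2% of those of CCI. Another share came from immune clusters that carried no name and, in CCI, from a small cluster of proliferating immune cells, 0.0628% and 0.302% of the cells of CCI replicates 1 and 2, with 14.0% and 10.5% of the C1qa UMIs at 9629 and 6940 CPM. This cluster held 7 and 32 cells in CCI and 0 in CON. Antigen-presenting-like cells, which carry class II molecules, held C1qa at 2467 and 2768 CPM in CON and at 433 and 719 CPM in CCI. They numbered 40 and 17 cells in CON and 74 and 106 in CCI, too few in CON replicate 2 for the test, so this is a description.

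Over all kept cells C1qa stood at 56.0 and 82.1 CPM in CON and at 34.9 and 227.5 CPM in CCI. The CCI libraries lay on both sides of the CON libraries, and the log2 fold change was 1.01 (SE 0.81, edgeR adjusted p = 0.765). Macrophage-like cells were 2.09% and 2.64% of the kept cells in CON and 0.941% and 4.12% in CCI, in the same order of libraries as C1qa. The part of the macrophage share in the value over all cells was not tested. Without CCI replicate 1 C1qa over all cells was called, at a log2 fold change of 1.80 (edgeR adjusted p = 0.0457), and C1qc at 1.995 (adjusted p = 0.043).

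Outside the immune classes C1q was sparse. In fibroblast-like cells C1qa was 22.9 and 0 CPM in CON and 3.91 and 68.1 CPM in CCI. In CCI replicate 2 a single barcode held 96 of the 396 C1qa UMIs of the class. In satellite glia-like cells C1qa was 1.14 to 3.27 CPM in every library, and in myelinating Schwann-like cells 1.88 to 5.51 CPM.

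PEP1-like neurons, the peptidergic nociceptors with Tac1 and Calca, held the chains in another ratio. They held 27 and 29 C1qb UMIs in CON and 76 and 121 in CCI, against 4, 3, 6 and 69 of C1qa and 4, 4, 8 and 51 of C1qc. C1qb made up 77.1% and 80.6% of their C1q UMIs in CON and 84.4% and 50.2% in CCI. The C1qb UMIs lay in 26 and 16 barcodes of CON and 53 and 45 of CCI, of which 2, 2, 2 and 8 held C1qa or C1qc too. In CCI replicate 2 a single barcode held 48 of the C1qb UMIs, and the highest C1qa count of a barcode was 44. The level of C1qb in these neurons was 2.68 and 4.59 CPM in CON and 5.29 and 10.45 CPM in CCI, with no overlap, and its log2 fold change was 1.21 (SE 0.47, edgeR adjusted p = 1). Without CON replicate 2 it was called, at 1.67 (adjusted p = 0.00725). In PEP1-like neurons 5 members were tested and 0 were called, where edgeR called 9 of 12776 genes (0.0704%).

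In pooled neurons C1qa stood at 0.584 and 0.865 CPM in CON and 0.582 and 4.00 CPM in CCI, and CCI replicate 2 alone was high. Of the 234 C1qa UMIs of that library PEP1-like neurons held 69, with the highest count of a barcode given above. Neurons of no named subtype held 60 and CIP-like neurons, described below, 57. The log2 fold change was 1.76 (SE 0.79, edgeR adjusted p = 0.291), and over the fits that left out a library it ran from -0.25 to 2.60. The call was made without CON replicate 1, without CON replicate 2 and without CCI replicate 1, and not without CCI replicate 2. Each of these fits leaves 1 library in a group. C1qb in pooled neurons ran from -0.25 to 1.69 over these fits and was called without CON replicate 2 and without CCI replicate 1, and C1qc ran from -0.47 to 3.00 and was called in the same fits as C1qa.

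C4b (ENSMUSG00000073418, chromosome 17, 34728139 to 34743902 on GRCm38), the C4 component of the classical and lectin pathways, was highest in glia. In satellite glia-like cells it stood at 68.5 and 71.6 CPM in CON and at 246.5 and 229 CPM in CCI. In non-myelinating Schwann-like cells it stood at 248 and 104 CPM in CON and 540 and 348 CPM in CCI. In myelinating Schwann-like cells it stood at 11.3 and 5.19 CPM in CON and 65.2 and 46.3 CPM in CCI. Each CCI library exceeded each CON library in each of these classes. The smallest of the 3 clusters of myelinating Schwann-like cells, of 35 and 1 cells in CON and 41 and 8 in CCI, carried all 6 markers of the satellite glia list as well. It held 17 of the 30 C4b UMIs of the class in CON replicate 1, at 86.7 CPM, and 233 and 193 CPM in CCI. In the other two clusters C4b was 6.10 and 5.76 CPM in CON and 54.4 and 37.8 CPM in CCI, and 4.03 and 4.065 CPM in CON and 47.7 and 42.1 CPM in CCI.

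The same order was read outside the glia. C4b was 44.9 and 33.5 CPM in CON and 108 and 89.5 CPM in CCI in fibroblast-like cells. It was 45.3 and 50.5 CPM in CON and 118.5 and 132 CPM in CCI in macrophage-like cells, and 5.21 and 2.89 CPM in CON and 16.8 and 11.9 CPM in CCI in endothelial-like cells. In pericyte-like and smooth muscle-like cells the groups overlapped, at 6.87 and 19.8 CPM in CON and 18.6 and 57.2 CPM in CCI. Pooled neurons held 3.73 and 1.35 CPM in CON and 5.125 and 4.22 CPM in CCI, with a log2 fold change of 0.94 (SE 0.39, edgeR adjusted p = 0.252). That was called without CON replicate 1, at 1.83 (adjusted p = 5.59e-05), and with the replicate number as a block, at 1.05 (adjusted p = 0.0383). Neuron clusters of no named subtype gave 34.3% and 56.4% of the C4b UMIs of pooled neurons in CON and 41.65% and 43.3% in CCI. Either Fabp7 or Ednrb, of the satellite glia list, was among the top 10 genes of each of a pair of these clusters. One held C4b at 24.3 and 4.605 CPM in CON and 29.5 and 28.6 CPM in CCI, and the other at 40.55 and 132 CPM in CON and 86.95 and 128 CPM in CCI. The part of these clusters in the pooled value was not tested.

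The log2 fold change of C4b was 1.85 (SE 0.17, edgeR adjusted p = 0.584) in satellite glia-like, 1.40 (SE 0.52, adjusted p = 1) in non-myelinating Schwann-like, 2.69 (SE 0.45, adjusted p = 1) in myelinating Schwann-like, 1.45 (SE 0.30, adjusted p = 0.781) in fibroblast-like, 1.26 (SE 0.40, adjusted p = 0.954) in macrophage-like and 1.92 (SE 0.44, adjusted p = 0.964) in endothelial-like cells. None passed the adjusted threshold. DESeq2 on the same sums called C4b in satellite glia-like cells, at 1.83 (adjusted p = 4.25e-15), and in myelinating Schwann-like cells, at 2.72 (adjusted p = 0.0259). Over the fits with a library left out the edgeR value in satellite glia-like cells stayed between 1.83 and 1.88, with adjusted p from 0.164 to 1. In myelinating Schwann-like cells it was called without CON replicate 1, at 3.47 (adjusted p = 0.0138), and without CON replicate 2, at 2.39 (adjusted p = 0.0287).

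No gene of any kind was called by edgeR in the glial, endothelial and mural classes. In satellite glia-like cells 7 members were tested and 0 called, where 0 of 13095 genes were called (0%), 364 had an unadjusted p under 0.05 and DESeq2 called 25. In myelinating Schwann-like cells 5 members were tested and 0 called, of 10724 genes with 0 called (0%), 244 under an unadjusted 0.05 and 10 called by DESeq2. In non-myelinating Schwann-like cells 6 members were tested and 0 called, of 10827 genes with 0 called (0%), 216 under an unadjusted 0.05 and 8 called by DESeq2. Endothelial-like cells had 7 members tested and 0 called, of 12143 genes with 0 called (0%), 410 under an unadjusted 0.05 and 17 by DESeq2. Pericyte-like and smooth muscle-like cells had 4 members tested and 0 called, of 10248 genes with 0 called (0%), 199 under an unadjusted 0.05 and 9 by DESeq2.

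**Figure D2:**
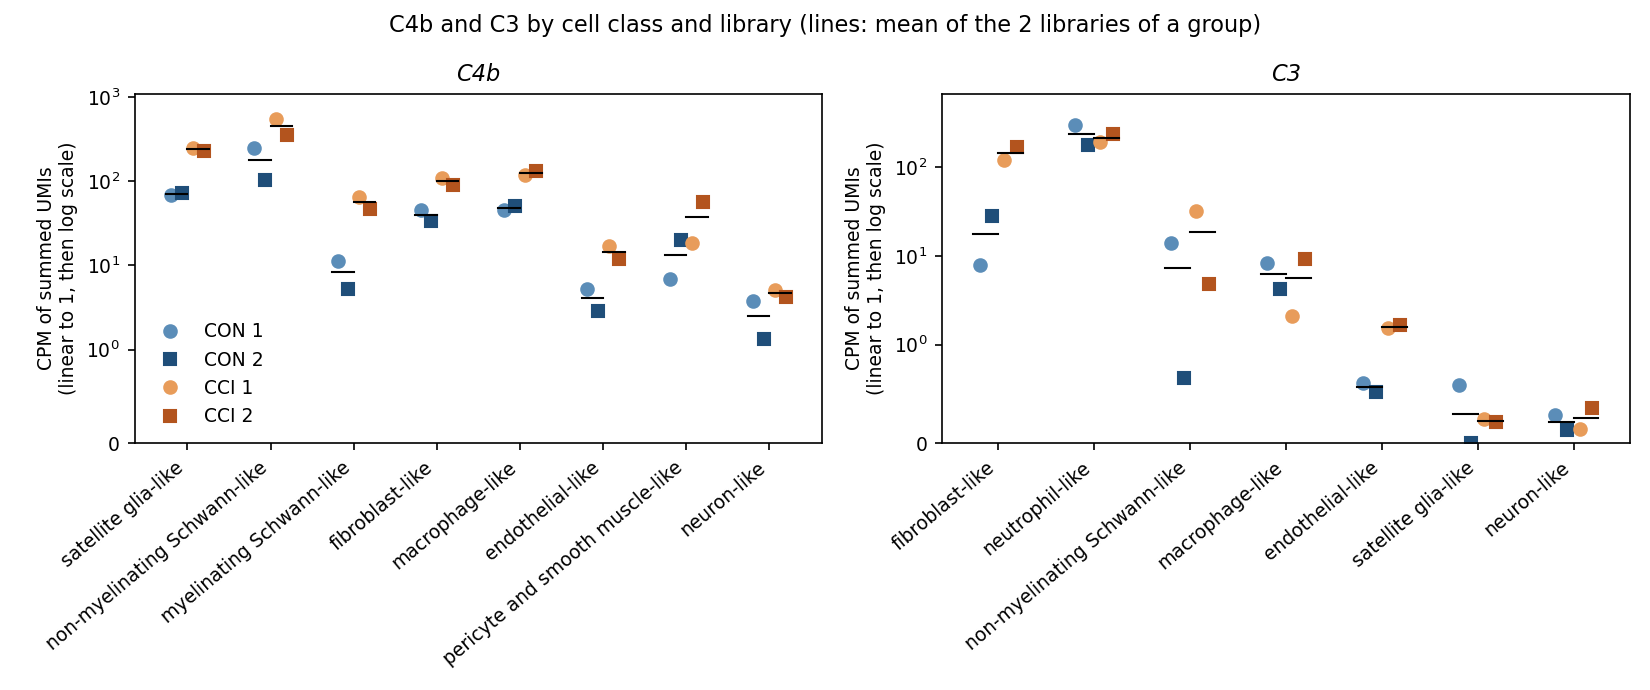
C4b (left) and C3 (right) in CPM of summed UMIs (y axis, linear to 1 and logarithmic above) by cell class (x axis), a point per library and a line at the mean of the 2 libraries of a group. C4b is higher in both CCI libraries in each class shown but pericyte-like and smooth muscle-like cells, and C3 is higher in both CCI libraries in fibroblast-like cells and not in neutrophil-like cells.

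The share of satellite glia-like cells with a C4b UMI, each cell thinned to 1000 UMIs, was 6.39% (95% exact binomial interval 5.47 to 7.41) and 4.78% (3.51 to 6.34) in CON and 20.4% (18.75 to 22.1) and 19.6% (18.1 to 21.2) in CCI. Such intervals cover counting error only. Without thinning 17.9% and 33.3% of the cells of CON and 57.1% and 62.0% of those of CCI held one, at median UMI counts of 3863.5, 11230, 5027 and 6762. Endothelial-like cells, with median UMI counts of 4582 to 13190, gave thinned shares of 0.149%, 0%, 1.06% and 1.20%. The shares in satellite glia-like cells were thus above those of the endothelial-like cells in every library and higher in both CCI libraries. Thinning left out 17, 21, 7 and 56 of the satellite glia-like cells, which were shallower.

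Satellite glia-like cells came from 4 clusters. In the cluster with the most cells C4b was 67.8 and 69.3 CPM in CON and 223.5 and 231 CPM in CCI. In the next it was 82.9 and 98.9 CPM in CON and 320 and 234 CPM in CCI, and in a cluster led by Cxcl10 it was 55.55 and 46.7 CPM in CON and 234 and 222 CPM in CCI. The smallest held 65.0 CPM and, on 60 cells, 236 CPM in CON, and 254 and 319 CPM in CCI. Both CCI libraries were above both CON libraries in each of the 4 clusters.

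The marker lists were also read in satellite glia-like cells. Counts of genes higher or lower in both CCI libraries are a description, since the share of all genes is not given. The fibroblast list summed to 380 and 443 CPM in CON and 585 and 583 CPM in CCI, with 4 of its 7 genes higher in both CCI libraries and 1 lower. The macrophage list, at 1.87 to 8.45 CPM, had 5 of 8 genes higher in both CCI libraries. The myelinating Schwann list summed to 1268 and 1857 CPM in CON and 1832 and 2258 CPM in CCI, with overlap. Of its 8 genes 4 were higher in both CCI libraries. The proliferation list, at 5.145 to 10.6 CPM, and the T and NK list, at 0.198 to 2.52 CPM, had 3 of 4 and 3 of 5 genes higher in both CCI libraries. The pericyte and smooth muscle list had 1 of 9 genes higher and 3 lower in both CCI libraries, and the antigen-presentation list 0 of 6 higher and 2 lower. The endothelial and non-myelinating Schwann lists had 1 gene higher and 1 lower each. The satellite glia list itself had 1 of 6 higher and 2 lower. The neutrophil, B, erythrocyte and neuron lists had 0 genes higher and 0 lower. The neuron list summed to 4079 and 333 CPM in CON and 4681 and 1741 CPM in CCI, higher in replicate 1 of each group. The part of these lists in the C4b value was not tested.

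Satellite glia-like cells gave 49.2% and 73.35% of all C4b UMIs in CON and 54.1% and 56.2% in CCI, and non-myelinating Schwann-like cells gave 25.5% and 15.0% in CON and 21.1% and 22.0% in CCI. The libraries held 1405 and 1043 C4b UMIs in CON and 5602 and 7478 in CCI. Over all kept cells that was 19.8 and 21.4 CPM in CON and 44.4 and 70.0 CPM in CCI, with a log2 fold change of 1.56 (SE 0.26, edgeR adjusted p = 0.147). DESeq2 called it (adjusted p = 0.000182), and edgeR called it without CCI replicate 1, at 1.84 (adjusted p = 0.0299). Over all cells 8 members were tested and 0 called, where edgeR called 12 of 17401 genes (0.069%), 1510 had an unadjusted p under 0.05 and DESeq2 called 418.

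**Figure D3:**
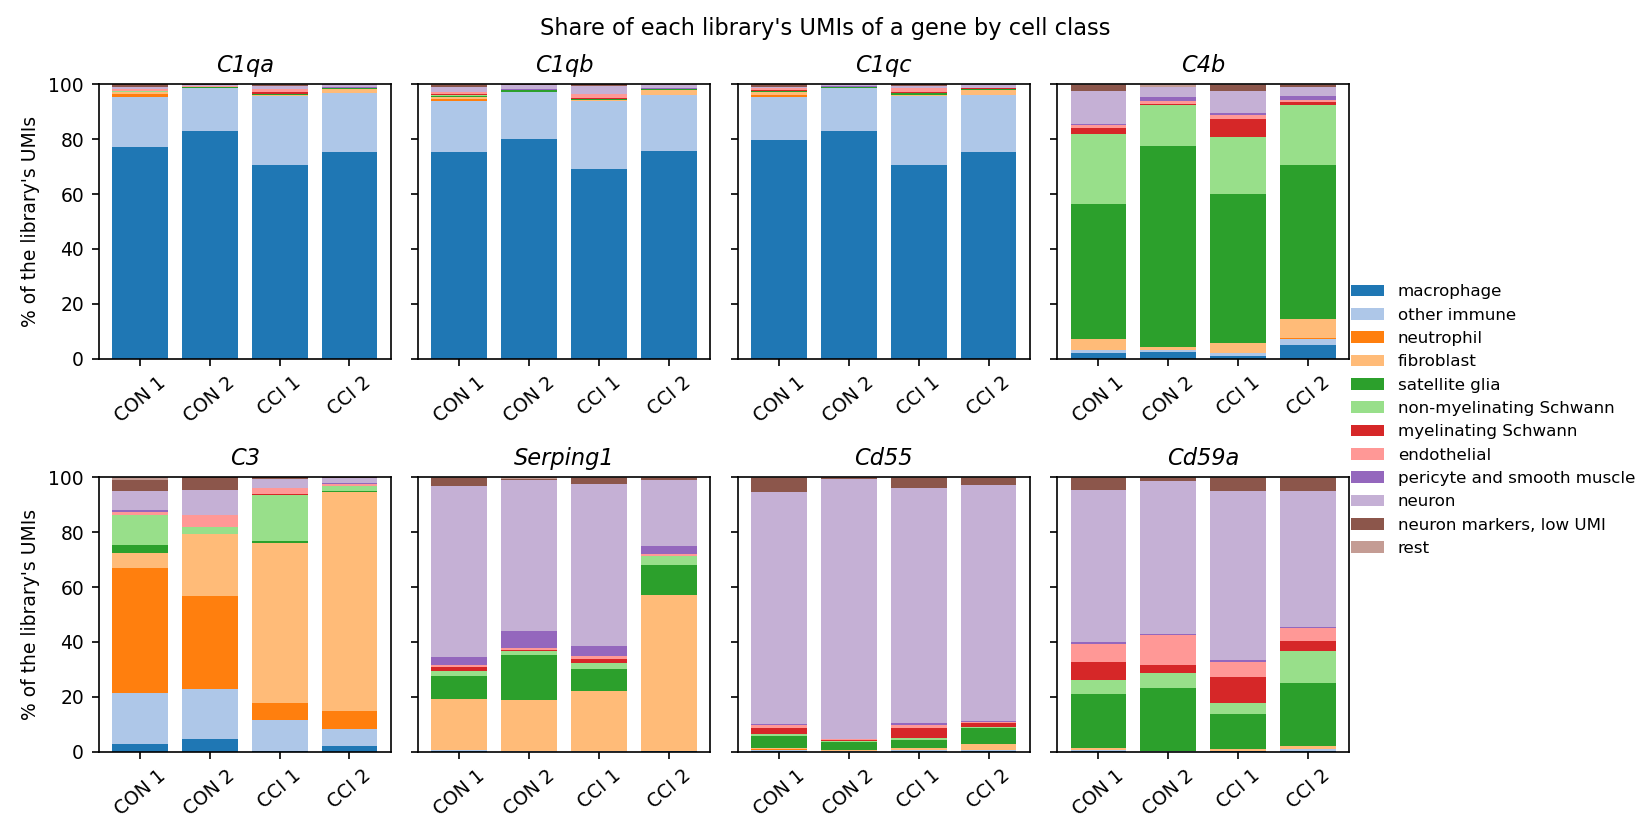
Share of each library's UMIs of a member, in percent (axis from 0 to 100), that came from each cell class, a stacked bar per member and library. Macrophage-like cells hold most C1q, satellite glia-like and non-myelinating Schwann-like cells most C4b, and neurons most Cd55, while the main source of C3 is neutrophil-like cells in CON and fibroblast-like cells in CCI.

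C3 (ENSMUSG00000024164, chromosome 17, 57203967 to 57228136), the hub of the cascade, was rare and came from different classes in the groups. In fibroblast-like cells it stood at 7.88 and 27.9 CPM in CON, on 10 UMIs in each library, and at 120 and 167 CPM in CCI, on 246 and 971 UMIs. Both CCI libraries were above both CON libraries. In CON replicate 2, where the class had 45 cells, a single cell held 9 of the 10 UMIs.

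The log2 fold change of C3 in fibroblast-like cells was 3.49 (SE 0.60, edgeR adjusted p = 0.63). It was called without CON replicate 1, at 2.58 (adjusted p = 0.0264), and without CON replicate 2, at 4.37 (adjusted p = 0.0065), and by DESeq2, at 3.37 (adjusted p = 0.000687), and the adjusted p over all alternatives reached 0.999. In fibroblast-like cells 8 members were tested and 0 called, where edgeR called 0 of 10567 genes (0%), 516 had an unadjusted p under 0.05 and DESeq2 called 27. The neutrophil list in this class summed to 23.65 and 2.79 CPM in CON and 540 and 14.1 CPM in CCI. The macrophage list summed to 67.0 and 19.55 CPM in CON and 40.5 and 92.1 CPM in CCI. The part of these lists in the C3 value was not tested.

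Thinned to 1000 UMIs, C3 was detected in 0.237% (95% exact interval 0.006 to 1.31) and 0% (0 to 7.87) of fibroblast-like cells of CON and in 7.75% (5.36 to 10.8) and 11.5% (9.47 to 13.8) of CCI. Unthinned the shares were 1.63%, 4.44%, 19.1% and 32.0%. Satellite glia-like cells gave 0.118%, 0%, 0% and 0.039%, and 1 library there had no C3 UMI at all.

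Neutrophil-like cells held C3 at 299 and 178 CPM in CON and 193 and 235 CPM in CCI, on 86 and 15 UMIs in CON and 26 and 77 in CCI. They gave 45.7% and 34.1% of all C3 UMIs in CON and 6.19% and 6.35% in CCI. The immune clusters without a name gave 17.55% and 13.6% in CON and 10.2% and 5.03% in CCI. Fibroblast-like cells gave 5.32% and 22.7% in CON and 58.6% and 80.1% in CCI, while they were 4.00% and 1.72% of the kept cells in CON and 3.70% and 8.40% in CCI. Non-myelinating Schwann-like cells held 13.8 and 0.667 CPM in CON and 32.1 and 4.87 CPM in CCI, and replicate 1 was the higher library in each group. Pooled neurons held 0.138 to 0.359 CPM.

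Whether CCI acted differently on the members in satellite glia-like and in fibroblast-like cells was tested as an interaction. For C4b the difference of the log2 fold changes was 0.32 (SE 0.26, edgeR adjusted p = 0.997). C3 passed the low-count filter of this test through the fibroblast-like cells, since the satellite glia-like cells held 6 and 0 C3 UMIs in CON and 3 and 4 in CCI, and no difference is given for it. Of 13932 genes in this test 0 were called (0%), no member among them, and 647 had an unadjusted p under 0.05.

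Serping1 (ENSMUSG00000023224, chromosome 2, 84765360 to 84775444), the gene of C1 inhibitor, was highest in fibroblast-like cells, at 993 and 1391 CPM in CON and 1301 and 1729 CPM in CCI. The groups overlapped, and the log2 fold change was 0.53 (SE 0.37, edgeR adjusted p = 0.875). NP1-like neurons, the non-peptidergic nociceptors with Mrgprd, held 230 and 163 CPM in CON and 228 and 258 CPM in CCI, with a log2 fold change of 0.35 (SE 0.22, adjusted p = 0.77). Pericyte-like and smooth muscle-like cells held 192 and 251 CPM in CON and 220 and 294 CPM in CCI. The groups overlapped in each of these 3 sources.

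Among neurons Serping1 marked NP1-like cells. Thinned to 10000 UMIs, it was detected in 86.7% and 80% of NP1-like neurons in CON and 86.5% and 82.8% in CCI, and in 16.4% and 9.80% of PEP1-like neurons in CON and 13.6% and 20.1% in CCI. The depth left out 77 and 79 NP1-like neurons in CON and 176 and 174 in CCI. Unthinned, the shares were 85.5%, 70.1%, 75.7% and 69.7% in NP1-like and 36.6%, 26.9%, 44.3% and 42.4% in PEP1-like neurons. Each other subtype tested held at most 63.75 CPM. CIP-like neurons, which carry Atf3 and Sprr1a and were 16.6% and 13.1% of neurons in CCI and 0.248% and 0.262% in CON, held 90.9 and 81.0 CPM in CCI. A further cluster of 1 and 0 neurons in CON and 51 and 37 in CCI carried all 5 CIP markers too. It was left without a name because it also carried at least 5 satellite glia markers, so these shares leave it out. NP1-like neurons gave 85.6% and 80.8% of neuronal Serping1 in CON and 50.5% and 50.8% in CCI, where CIP-like neurons gave 27.7% and 24.0%.

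In satellite glia-like cells Serping1 was 54.4 and 41.5 CPM in CON and 77.45 and 108 CPM in CCI. The groups did not overlap, and the log2 fold change was 1.05 (SE 0.30, edgeR adjusted p = 1). In NF2-like neurons, large myelinated cells with Pvalb, it was 27.3 and 12.3 CPM in CON and 47.75 and 20.1 CPM in CCI, with overlap and a log2 fold change of 0.84 (SE 0.38, adjusted p = 0.296), and it was called without CCI replicate 2, at 1.31 (adjusted p = 0.0231). In NF2-like neurons 3 members were tested and 0 called, where edgeR called 428 of 11047 genes (3.87%), 1574 had an unadjusted p under 0.05 and DESeq2 called 277. Neurons gave 62.5% and 55.0% of all Serping1 UMIs in CON and 58.9% and 24.1% in CCI, and fibroblast-like cells 18.7% and 18.5% in CON and 21.8% and 56.6% in CCI. CCI replicate 2 stood apart in both shares and held the highest share of fibroblast-like cells, 8.40%.

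Cd55 (ENSMUSG00000026399, chromosome 1, 130429798 to 130465009), the gene of decay-accelerating factor, was a transcript of non-peptidergic neurons. It fell in pooled neurons, from 494 and 434 CPM in CON to 246 and 188 CPM in CCI. The CCI libraries lay below the CON libraries by a log2 fold change of -1.02 (SE 0.19, n = 2 libraries per group, edgeR adjusted p = 0.0183). It was the only member of 8 tested in neurons to be called, where 747 of 15555 genes were called (4.8%), and DESeq2 gave -1.02 (adjusted p = 2.29e-05). The call was lost without CCI replicate 2, at -0.87 (adjusted p = 0.14), and without the CIP-like neurons, at -0.74 (SE 0.20, adjusted p = 0.136). That fit kept the unnamed cluster with CIP markers, which held 32.5 and 24.4 CPM of Cd55 in CCI.

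Within the subtypes that were tested the values of CON and CCI were closer together than in pooled neurons. This did not hold in the untested SST-like neurons, given below. Nor did it hold in neurons of no named subtype, at 205 and 190 CPM in CON and 92.0 and 50.5 CPM in CCI. In NP1-like neurons Cd55 was 1083 and 1162 CPM in CON and 901.5 and 812 CPM in CCI. NP1-like neurons came from 3 clusters. The first, of 164 and 45 cells in CON and 103 and 54 in CCI, held 1004 and 1054 CPM in CON and 711 and 609 CPM in CCI. The second, of 93, 32, 89 and 54 cells, held 1319 and 1302 CPM in CON and 1240 and 1015 CPM in CCI. The third, of 75 and 67 shallow cells in CON and 199 and 159 in CCI, held 761 and 1403 CPM in CON and 804.5 and 1072 CPM in CCI, with overlap. The part of this makeup in the NP1-like value was not tested. In NP2-like neurons, those with Mrgpra3, it was 752 and 886 CPM in CON and 679 and 673 CPM in CCI. In PEP1-like neurons it was 84.3 and 74.9 CPM in CON and 64.6 and 59.65 CPM in CCI. Both CCI libraries were below both CON libraries in each of these subtypes, by less than in pooled neurons. Thinned to 10000 UMIs, Cd55 was detected in 99.5% to 100% of NP1-like neurons in every library, and in 51.1% and 45.1% of PEP1-like neurons in CON and 39.9% and 34.6% in CCI.

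The log2 fold change of Cd55 was -0.36 (SE 0.21, edgeR adjusted p = 0.747) in NP1-like, -0.24 (SE 0.27, adjusted p = 0.997) in NP2-like and -0.30 (SE 0.21, adjusted p = 1) in PEP1-like neurons. It was -0.26 (SE 0.16, adjusted p = 1) in cLTMR1-like neurons, the low-threshold C fibers with Th, and -0.29 (SE 0.27, adjusted p = 0.722) in NF2-like neurons. None of these 5 passed the test. The difference of the effect between NP1-like and PEP1-like neurons was -0.02 (SE 0.19, adjusted p = 1), in a test that called 9 of 13238 genes (0.068%) and 0 of 7 members.

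In NP1-like neurons 7 members were tested and 0 called, where edgeR called 58 of 12077 genes (0.48%), 920 had an unadjusted p under 0.05 and DESeq2 called 86. In NP2-like neurons 3 were tested and 0 called, where 9 of 10081 genes were called (0.0893%), 266 had an unadjusted p under 0.05 and DESeq2 called 8. In cLTMR1-like neurons 3 were tested and 0 called, where 11 of 11274 genes were called (0.0976%), 413 had an unadjusted p under 0.05 and DESeq2 called 11. In PEP1-like neurons 476 genes had an unadjusted p under 0.05 and DESeq2 called 53. SST-like neurons, with Sst and Nppb, had too few cells for the test and held 284 and 267 CPM of Cd55 in CON and 143 and 157 CPM in CCI, on 61, 10, 91 and 47 cells. CIP-like neurons held 43.2 and 23.9 CPM in CCI.

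The makeup of the neurons moved with the pooled value. NP1-like cells were 27.4% and 37.8% of neurons in CON and 21.8% and 22.6% in CCI, and gave 77.1% and 67.8% of neuronal Cd55 UMIs in CON and 66.7% and 62.1% in CCI. The part of this makeup in the pooled difference was not tested beyond the fit without CIP-like neurons. Neurons gave 84.4% and 94.7% of all Cd55 UMIs in CON and 86.0% and 86.0% in CCI.

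**Figure D4:**
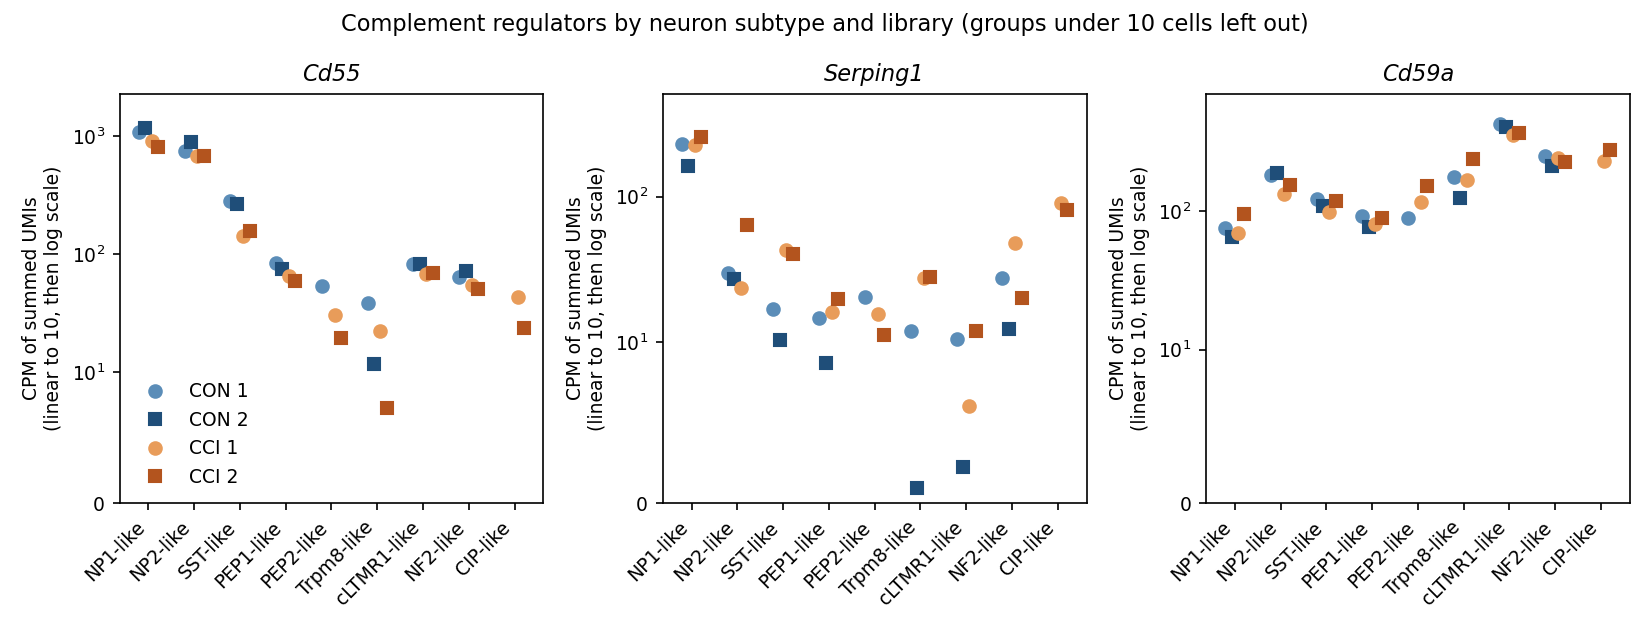
Cd55, Serping1 and Cd59a (panels) in CPM of summed UMIs (y axis, linear to 10 and logarithmic above) by neuron subtype (x axis), a point per library with at least 10 cells. Cd55 is highest in NP1-like and NP2-like neurons and lower in both CCI libraries there, Serping1 is highest in NP1-like neurons and Cd59a in cLTMR1-like neurons.

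In all 7 non-neuronal classes tested Cd55 was higher in replicate 1 than in replicate 2 of each group. In endothelial-like cells it was 73.6 and 8.66 CPM in CON and 43.4 and 12.3 CPM in CCI, and in macrophage-like cells 151 and 10.5 CPM in CON and 52.0 and 9.28 CPM in CCI. The summed NP1 markers in endothelial-like cells were 73.0 and 7.09 CPM in CON and 57.8 and 15.0 CPM in CCI, and in macrophage-like cells 134 and 23.2 CPM in CON and 66.5 and 25.0 CPM in CCI. The NP1 markers too were higher in replicate 1 of each group in all 7 classes. In myelinating Schwann-like cells Cd55 was 204 and 78.9 CPM in CON and 168 and 97.0 CPM in CCI, with NP1 markers at 135.5 and 20.8 CPM in CON and 76.7 and 25.9 CPM in CCI. The part of neuronal RNA in these non-neuronal values was not tested. In fibroblast-like cells Cd55 was 127 and 109 CPM in CON and 62.0 and 41.5 CPM in CCI, with NP1 markers at 153 and 134 CPM in CON and 102 and 71.9 CPM in CCI, and a log2 fold change of -1.05 (SE 0.30, edgeR adjusted p = 0.875).

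Cd59a (ENSMUSG00000032679, chromosome 2, 104095753 to 104115410), the gene of the inhibitor of the membrane attack complex, was the most widely spread member. It was 399 and 314 CPM in CON and 418 and 560 CPM in CCI in non-myelinating Schwann-like cells. It was 285 and 295 CPM in CON and 390 and 435 CPM in CCI in myelinating Schwann-like cells, and 227 and 188 CPM in CON and 235 and 284 CPM in CCI in satellite glia-like cells. In these glial classes both CCI libraries were above both CON libraries. The log2 fold changes were 0.54 (SE 0.37), 0.55 (SE 0.23) and 0.42 (SE 0.25), each with an edgeR adjusted p of 1. None was called, so the order of the libraries is a description.

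Endothelial-like cells held Cd59a at 233 and 254 CPM in CON and 215 and 194 CPM in CCI, with a log2 fold change of -0.14 (SE 0.22, edgeR adjusted p = 0.977). The order of the groups was thus the opposite of that in the glia, and the difference between these effects was not tested. Macrophage-like cells held 10.5 to 55.4 CPM and fibroblast-like cells 16.75 to 60.1 CPM. Neurons gave 55.4% and 55.7% of all Cd59a UMIs in CON, and satellite glia-like cells 19.8% and 22.8%.

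Among neuron subtypes with at least 10 cells in a library, cLTMR1-like cells held the most Cd59a. They held 431 and 403 CPM in CON and 357 and 366 CPM in CCI, with a log2 fold change of -0.22 (SE 0.15, edgeR adjusted p = 1). NF2-like neurons held 250 and 212 CPM in CON and 241 and 227 CPM in CCI, and CIP-like neurons 230 and 277 CPM in CCI. The clusters of CIP-like neurons differed. A cluster of 47 and 23 cells in CCI held 425.5 and 485 CPM, above the cLTMR1-like neurons of CCI. Another, of 106 and 58 cells, held 157 and 189 CPM. NP2-like neurons held 182.5 and 190 CPM in CON and 133 and 155 CPM in CCI. NP1-like and PEP1-like neurons, at 64.75 to 96.3 CPM, were the lowest of the tested subtypes and overlapped each other. The high-Cd55 NP1-like neurons thus held little Cd59a, and the high-Cd59a cLTMR1-like neurons held 68.3 to 82.2 CPM of Cd55. The levels were not opposite in every subtype. NP2-like neurons held Cd55 at 673 to 886 CPM beside 133 to 190 CPM of Cd59a. PEP1-like neurons were low in both, with Cd55 at 59.65 to 84.3 CPM.

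The share of neuronal Cd59a from cLTMR1-like neurons was 32.2% and 54.1% in CON and 11.5% and 17.4% in CCI, while CIP-like neurons gave 36.4% and 31.4% in CCI. In pooled neurons Cd59a was 144 and 170 CPM in CON and 158 and 190.5 CPM in CCI, with a log2 fold change of 0.23 (SE 0.20, edgeR adjusted p = 0.611).

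**Figure D5:**
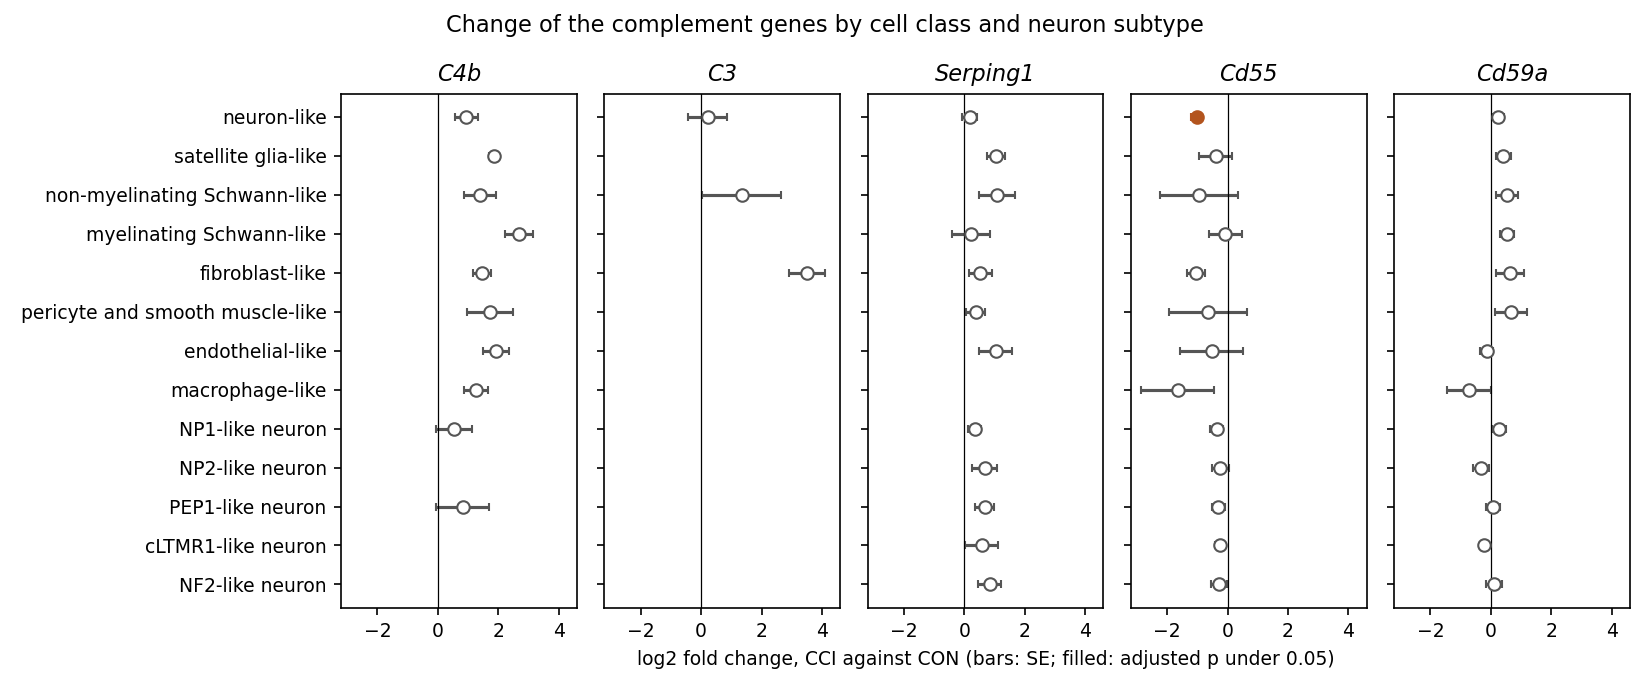
Log2 fold change (x axis, CCI over CON) of C4b, C3, Serping1, Cd55 and Cd59a (panels) in each cell class and neuron subtype (rows), with bars of 1 SE on either side and filled points for an adjusted p under 0.05. Cd55 in pooled neurons is the only filled point, at -1.02, and C4b lies above 0 in every row where it was tested, from 0.53 in NP1-like neurons to 2.69 in myelinating Schwann-like cells.

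The rest of the pathway was described from a list of 48 genes, of which 47 were in the matrices and C4a was not analysed here. In pooled neurons 26 of them were tested and 2 passed the threshold, Mbl2 and Colec10. Only the call of Mbl2, higher in CCI, is read, where 747 of 15555 genes were called (4.8%), 647 of them higher. Mbl2, a mannose-binding lectin, was 0.898 and 0.865 CPM in CON and 2.84 and 3.88 CPM in CCI, with a log2 fold change of 2.01 (SE 0.32, edgeR adjusted p = 0.00894). Colec10, a collectin, had 1 and 0 UMIs in CON and 74 and 32 in CCI. It passed the low-count filter through the CCI libraries alone, so its values are a description. The makeup of the neurons moved with these values too, and its part was not tested. In each other class and subtype 6 to 34 of the listed genes were tested and 0 were called.

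The median log2 fold change of the tested genes of the list was 0.07 in pooled neurons, where that of all genes was -0.02, 0.03 in satellite glia-like cells against 0.02, 0.06 in fibroblast-like cells against 0.003 and -0.09 in macrophage-like cells against -0.09. It was 0.31 over all cells against -0.02, 0.20 in endothelial-like cells against 0.02 and 0.14 in non-myelinating Schwann-like cells against 0.01. In the other classes and subtypes it lay between -0.21 in NF2-like and 0.17 in NP2-like neurons. Of the classical and lectin pathway 4 listed genes were tested in satellite glia-like cells, C1ra, C1s1, Masp1 and Mbl2, with a median of 1.29 and 0 called. The proteases that act with C1q, C1ra and C1s1, were highest in fibroblast-like cells, C1ra at 79.6 and 204 CPM in CON and 123 and 160 CPM in CCI, and C1s1 at 116 and 235 CPM in CON and 163 and 245 CPM in CCI. In satellite glia-like cells C1ra was 2.28 and 2.81 CPM in CON and 5.37 and 6.21 CPM in CCI. Colec12, a scavenger receptor of the collectin family, was also highest in fibroblast-like cells, at 110 to 218 CPM.

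Of the alternative pathway Cfp, the gene of properdin, stood in macrophage-like cells at 67.1 and 75.8 CPM in CON and at 274 and 313.5 CPM in CCI, with a log2 fold change of 1.91 (SE 0.42, edgeR adjusted p = 0.779). Cfb reached 117 CPM in fibroblast-like cells of CON replicate 2 and 6.88 to 10.7 CPM in the other libraries, and Cfd was at most 0.788 CPM in any class. Of the terminal pathway C8g, C6 and Hc, the highest of their role, were at most 5.85 CPM in any class or subtype.

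Of the receptors C3ar1 was in macrophage-like cells, at 186 and 528 CPM in CON and 183 and 488 CPM in CCI, the replicate 2 libraries being higher in both groups. Cd93 was in endothelial-like cells, at 718 and 580 CPM in CON and 466 and 741 CPM in CCI, and in macrophage-like cells, at 161 and 263 CPM in CON and 66.5 and 95.7 CPM in CCI. C1qbp was in all 8 tested classes, at 54.7 to 183 CPM. Of the regulators Vtn was in pericyte-like and smooth muscle-like cells at 448 to 1199 CPM, and Clu was in every class. Cd55 and Cd59a have close copies, Cd55b and Cd59b, whose mean levels over the 8 tested classes were 0.0143 and 7.48 CPM, and reads of a pair could be split between its members.

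The genes most like each member were taken by the Pearson correlation of log2(CPM + 1) over 48 sums of 12 classes and subtypes by library. The sums share libraries and depth, so the values are a description. C1qa was followed by Pf4 (r = 0.98), Ms4a6c (0.98) and Ptprc (0.98), C1qb by C1qa (0.98), Ms4a6c (0.97) and Ctss (0.97), and C1qc by C1qa (0.98), Ctss (0.98) and Fcer1g (0.97). C4b was followed by Pdlim4 (0.93), Gas7 (0.90) and Nid2 (0.89), and C3, at lower values, by Mmp2 (0.82), Cdkn2a (0.81) and Tgfbi (0.78). Serping1 was followed by Gpc3 (0.80), Twist1 (0.77) and Agtr1a (0.76), Cd55 by Krt27 (0.90), Adk (0.90) and Tmem233 (0.87), and Cd59a by Nudt3 (0.80), Slitrk5 (0.80) and Dysf (0.78).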

How the data were processed

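Gene by cell count matrices of 4 libraries were used. The deposited values are whole-number UMI counts that the authors made with Cell Ranger (5.0.1 per the file headers, mm10 build, after CASAVA 1.8 base calling per the labels), and the authors' own later filters and downsampling are not in them. Groups were taken from the labels, and 0 columns were left unmapped.

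Cells were kept at over 500 genes and less than 20% of UMIs from mitochondria. Mitochondrial genes were left out of library sizes. Libraries were integrated by anchors in Seurat 5.3.0 with sctransform 0.4.2 (R 4.3.3), with 2000 features, 10 principal components and a resolution of 0.8. Complement genes were left out of the features and the markers. A cluster was named when at least 3 markers of a list were 1.5-fold higher in it, and 1 cluster of neurons and 1 of low-UMI neuron barcodes had Gfra3, of the non-myelinating Schwann list, among their top 10 genes. Scrublet (scanpy 1.11.5) called 4 doublets in all, so it had not worked, and none were removed. The 5% of barcodes with the highest scores were left out as an alternative.

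Counts were summed per class and library and tested with edgeR 4.0.16 (TMM factors, filterByExpr, quasi-likelihood test) where each library had at least 20 cells. DESeq2 1.42.0, upper-quartile factors, no filter, each library left out, a block for the replicate number, a stricter cell filter (1000 genes, 10% mitochondrial), clusters without integration and low-UMI neuron barcodes added were alternatives. The tests were run on simulated counts with a fixed spread between libraries. That checks the code and not how the tests perform at the spread of these libraries. An exact permutation test of 2 against 2 libraries cannot give a p under 0.333. Cells were thinned to 1000 UMIs, neurons to 10000, for shares of cells, with 95% exact binomial (Clopper-Pearson) intervals.

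The members and lists were chosen with earlier results of these data known. Of the other pathway genes, those called in a class and the 3 highest of each role were named, except 1 regulator that is not reported here, and for each member the 3 genes most correlated with it, among genes with a mean of at least 10 CPM. Gene positions are from RefSeq on GRCm38.p6.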

Additional observations from a re-analysis of the deposited data

How the results depend on the processing

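Over 95 results on members, 962 values under alternatives were compared, those of the C3 difference set aside above among them. Of these 924 stayed on their side of the threshold with no called value changing sign, 36 passed it where the reported value had not, 2 no longer passed it and 0 reversed a call. The members called over the cell classes numbered 1, but 4 with DESeq2, 10 with no filter on low counts, 2 with the replicate block and 0 to 6 with a library left out. All genes called over the classes numbered 747, but 1161 with DESeq2, 2105 with no filter, 2173 with the replicate block, 449 with clusters made without integration and 798 to 1952 with a library left out. Members called over the neuron subtypes numbered 0, but 2 with no filter and 1 to 3 with a library left out, and all genes 515, but 1372 with no filter, 1158 with the block, 13 without integration and 608 to 1103 with a library left out. The difference between NP1-like and PEP1-like neurons was called for 9 genes, but 167 with no filter and 15 to 253 with a library left out. That between satellite glia-like and fibroblast-like cells was called for 0 genes, but 144 with no filter and 1 to 69 with a library left out, and for 0 members, but 1 with no filter and 0 to 1 with a library left out. The cause of these shifts was not tested. The 1 member called in the difference between satellite glia-like and fibroblast-like cells was C3 each time. That difference was set aside above, since satellite glia-like cells held 6 and 0 C3 UMIs in CON and 3 and 4 in CCI. Its calls are therefore not read as a result.

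The replicate numbers give only 2 pairs and no source says what they mark. Deviations of same-numbered libraries correlated positively in every class and subtype tested, by 0.0605 to 0.646 across genes. The main tests take no account of this. Since the meaning of the numbers is not stated, the block is given as an alternative only. Cd55 in pooled neurons was -1.03 with the block (adjusted p = 0.000558). With no filter the C1q genes in pooled neurons, C4b and C1qa and C1qb in fibroblast-like cells, C4b in neurons, myelinating Schwann-like cells and all cells, and C3 in fibroblast-like cells were called. C4b in PEP1-like neurons was called without CON replicate 1, at 4.05 (adjusted p = 0.00614), where CON was left with 1 UMI. Leaving out the CIP-like neurons, or the neuron cluster with Gfra3, where Cd55 was again called, was chosen after seeing the data. The source shares moved by a median of 0.96 percentage points and at most 4.43 with the stricter cell filter, and by a median of 6.90 and at most 35.2 without integration, where non-myelinating Schwann-like cells were not named in 3 libraries. Relative to plain library totals, TMM shifted the median log2 fold change by 0.17 in fibroblast-like, 0.15 in pericyte-like, 0.11 in endothelial-like and -0.12 in macrophage-like cells. Levels of C1q in neurons and C3 in CON fibroblast-like cells rest on few UMIs.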

Other observations

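Shallow barcodes with neuron markers, kept apart from the neurons, held Cd55 at 334 and 140 CPM in CON and 140 and 83.0 CPM in CCI. They held Cd59a at 127 and 154.5 CPM in CON and 171 and 261 CPM in CCI, and C4b at 7.43 and 3.19 CPM in CON and 18.2 and 11.6 CPM in CCI. Neurons of no named subtype held C4b at 24.2 and 19.8 CPM in CON and 27.4 and 27.2 CPM in CCI, above the 1.35 to 5.13 CPM of the pooled neurons in every library.

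The unnamed immune clusters held C1qa at 1333 and 1315 CPM in CON and 663 and 2048 CPM in CCI, and C3 at 102.5 and 33.4 CPM in CON and 79.8 and 57.8 CPM in CCI. Proliferating immune cells, present in CCI only at 7 and 32 cells, held C4b at 423 and 171 CPM, on 27 and 63 UMIs. B-like cells held Cd55 at 276.5 and 112 CPM in CON and 43.0 and 62.5 CPM in CCI, on 6 to 35 UMIs a library. These classes were not tested.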
